A study of Mus musculus with 18 samples.

Results

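The interferon-induced immunity GTPases described here were 10 genes: *Igtp*, *Tgtp1*, *Tgtp2*, *Irgm1*, *Irgm2*, *Iigp1* and *Ifi47* of the immunity-related GTPase (IRG) family, and *Gbp2*, *Gbp3* and *Gbp7* of the guanylate-binding protein (GBP) family. They were found by their symbols among 55491 genes of a gene count table, and all 10 had a row. The group was selected on expression values of these same samples across the 6 combinations of tissue and treatment, so the fold changes and calls below, which come from fits across all genes, describe the 10 genes and are not independent tests of them. The shares of all tested genes are printed beside them for scale, and nothing about the 10 is read from those shares. Bulk RNA-Seq had been performed on B cells of female Balb/cJ mice aged 10 to 12 weeks. All mice, including the PBS controls, were sensitized i.p. to the egg allergen ovalbumin (OVA) with 20 µg OVA and 1 mg alum on days 0 and 14, and were treated i.v. on days 28 and 42. The 6 groups, of 3 libraries each, were B cells from the spleen or from Peyer's patches (PPs, the lymphoid follicles of the small intestine) of mice given 100 µL PBS, 100 µg soluble OVA or 2.5 mg OVA NPs, which are polymer nanoparticles that encapsulate OVA. RNA was taken on day 44.

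B cells were isolated by negative magnetic selection, so other cells could remain. PPs were digested with enzymes at 37 °C whereas spleens were dissociated mechanically and treated with a red cell lysis buffer, and the tissue and its preparation cannot be told apart. The libraries are labeled as biological replicates, and the splenic PBS and OVA NP groups are described as 3 mice each. Whether a spleen and a PP library came from the same mouse is not given in the sources used here. Library totals ran from 14177253 to 30052297 counts, with PP PBS replicate 2 the shallowest. A level of 3 counts corresponded to between 0.0998 and 0.212 CPM, which is the count of a gene scaled to a common library total, a limit that covers counting error only. The 7 B cell markers checked were detected in every group, with a summed level of 8448 to 10140 CPM in spleen libraries and of 5078 to 7004 CPM in PP libraries. Mitochondrial transcripts took 2.82% to 3.41% of the counts in the spleen, and 5.41% to 7.67%, 4.97% to 6.02% and 9.08% to 9.80% in the PP libraries of PBS-, soluble OVA– and OVA NP–treated mice.

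IRG and GBP proteins are large GTPases of cell-autonomous immunity. Interferons, interferon-γ above all, induce them through GAS and ISRE elements in their promoters, and the transcription factor IRF1 takes part. The effector IRGs, among them the products of *Tgtp1*, *Tgtp2*, *Iigp1* and *Ifi47*, assemble on the vacuoles of intracellular parasites and bacteria and break them open. The regulatory IRGs, encoded by *Irgm1*, *Irgm2* and *Igtp*, reside on host membranes and hold the effectors inactive there, and GBPs gather on vacuoles and on bacteria and promote inflammasome activation. B cells transcribe many of these genes without infection, and interferon raises them.

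The genes fall into clusters on the mouse genome. In GRCm38, *Irgm1* (chr11:48861968-48871683), *Tgtp1* (chr11:48985327-48994172), *Tgtp2* (chr11:49057194-49064206) and *Ifi47* (chr11:49076587-49096974) lie in one cluster, and *Igtp* (chr11:58199556-58207591) and *Irgm2* (chr11:58199618-58222782) overlap farther along the same chromosome. *Gbp7* (chr3:142530342-142550149), *Gbp3* (chr3:142560026-142573209) and *Gbp2* (chr3:142620602-142638008) lie in another, where *Gbp2b* stands between *Gbp3* and *Gbp2*. The longest transcripts of *Tgtp1* and *Tgtp2* were 99.8% identical over their aligned bases, and 71.2% of the windows of *Tgtp1* that have the length of a read also occurred in *Tgtp2*. How their reads were divided is therefore uncertain, and their sum is given beside them. The exons of *Igtp* and *Irgm2* shared 162 bases, which is 8.01% of the exonic length of *Igtp* and 4.39% of that of *Irgm2*.

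RefSeq promoter windows were searched for 9 of the 10 genes. *Iigp1* was left out of this search, so the counts of matches below do not cover it. The 250 bases before the transcription start were searched on both strands for an ISRE-like motif, GAAANNGAAA, and a GAS-like motif, TTCNNNGAA. The ISRE-like motif was present in 8 of the 9 genes, against 2.98% of all 32851 mouse windows, and the GAS-like motif was present in 5 of the 9, against 7.02%. In *Igtp*, *Tgtp1*, *Tgtp2* and *Irgm2* a GAS-like match was followed within 5 bases by an ISRE-like match, an arrangement looked for only after these sequences had been seen. It was found in 6 of the 32851 windows (0.0183%), the others being those of *Bst2* and *Gm12185*. *Ifi47* had no match in its window, which says only that these letters are not there. The stretches that hold the matches are shown because interferon signals are known to act through such elements, though a match here is a description and not a shown binding site. They are written 5′ to 3′ in the direction of the gene, with the matched motifs in capitals, and in *Gbp2*, *Gbp3* and *Gbp7* the ISRE-like match is on the opposite strand.
Igtp: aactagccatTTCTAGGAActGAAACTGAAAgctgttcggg
Irgm2: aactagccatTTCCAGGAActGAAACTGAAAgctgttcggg
Tgtp1: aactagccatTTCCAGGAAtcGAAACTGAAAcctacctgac
Tgtp2: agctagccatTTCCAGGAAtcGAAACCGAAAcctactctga
Irgm1: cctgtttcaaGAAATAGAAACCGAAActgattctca
Gbp2: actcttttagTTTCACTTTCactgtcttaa
Gbp3: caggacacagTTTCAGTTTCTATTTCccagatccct
Gbp7: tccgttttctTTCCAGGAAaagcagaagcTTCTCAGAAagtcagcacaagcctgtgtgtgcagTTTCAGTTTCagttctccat

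In GRCm38.p6 these stretches are at chr11:58199501-58199541 (plus strand) for *Igtp*, chr11:58214892-58214932 (plus) for *Irgm2*, chr11:48992304-48992344 (minus) for *Tgtp1*, chr11:49064263-49064303 (minus) for *Tgtp2* and chr11:48871425-48871460 (minus) for *Irgm1*. For the GBPs they are at chr3:142620594-142620623, chr3:142559989-142560024 and chr3:142530220-142530302, all on the plus strand, for *Gbp2*, *Gbp3* and *Gbp7*. Matches lay between positions -106 and -15 from the start in every gene that had one. The ISRE-like letters were the same, GAAACTGAAA, in *Igtp*, *Tgtp1* and *Irgm2* and, read on the opposite strand, in *Gbp7* and in a match of *Gbp3*. In *Irgm1* and in *Gbp3* a pair of ISRE-like matches overlapped by several bases.

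**Figure D1:**
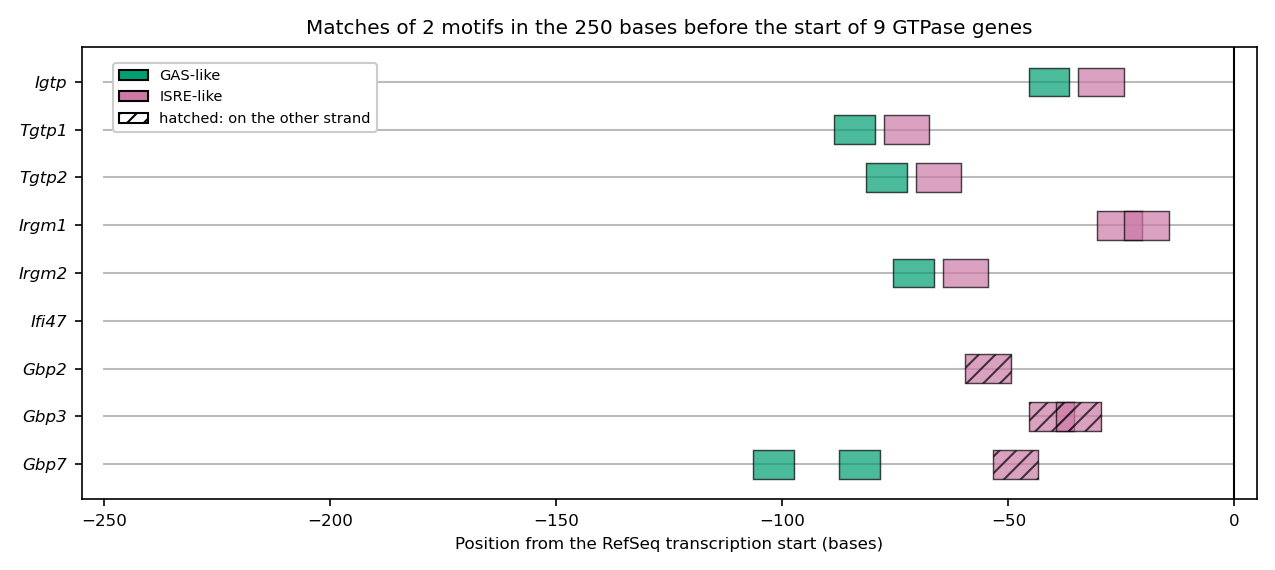
Positions of GAS-like (green) and ISRE-like (pink) matches in the 250 bases before the RefSeq transcription start of 9 genes; the horizontal axis is the distance from the start in bases, and hatching marks matches on the opposite strand. All matches lie between positions -106 and -15, and in *Igtp*, *Tgtp1*, *Tgtp2* and *Irgm2* the GAS-like match stands just before the ISRE-like one.

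The transcripts were abundant in splenic B cells and lower in PP B cells, with the highest levels after OVA NPs and the lowest in PPs after soluble OVA. Summed over the 10 genes, the level in the spleen was 298.7 ± 31.2 CPM (SD, n = 3) in PBS controls, 279 ± 11.5 CPM after soluble OVA and 402.3 ± 33.1 CPM after OVA NPs. In PPs the sums were 136.3 ± 9.21 CPM, 97.9 ± 14.4 CPM and 159.4 ± 23.7 CPM. In every spleen library the sum exceeded that of every PP library, and in bulk RNA fewer cells of a type and less RNA per cell cannot be told apart. The mean was highest in the spleen after OVA NPs for 9 of the 10 genes, all but *Iigp1*, and for 5 of them (*Igtp*, *Tgtp2*, *Irgm2*, *Ifi47* and *Gbp7*) all 3 of these libraries exceeded the other 15. The mean was lowest in PPs after soluble OVA for 7 genes, all but *Tgtp1*, *Iigp1* and *Gbp3*, and for 5 of these (*Igtp*, *Tgtp2*, *Irgm1*, *Gbp2* and *Gbp7*) all 3 libraries were below the other 15. With the 6 groups of a gene put in order of their means, 1 of the 5 neighboring pairs overlapped for *Igtp*, *Irgm2*, *Gbp2* and *Gbp7*, 2 for *Tgtp2*, 3 for *Irgm1* and *Ifi47*, 4 for *Tgtp1* and *Gbp3*, and all 5 for *Iigp1*. How many of all tested genes have such patterns over the 6 groups was not counted, so these numbers only describe the 10 genes.

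Relative to exonic length, *Ifi47* had the highest level of the 10 in PBS controls, with 17.6 ± 3.4 CPM per kilobase in the spleen and 11.3 ± 1.4 in PPs. In the spleen it was followed by *Igtp* at 14.3 ± 1.4, *Irgm1* at 13.7 ± 1.5, *Gbp3* at 11.2 ± 0.62, *Tgtp2* at 9.09 ± 1.2, *Gbp2* at 8.61 ± 0.45, *Irgm2* at 7.94 ± 0.72 and *Gbp7* at 5.18 ± 0.77 CPM per kilobase. *Tgtp1* stood at 1.03 ± 0.27 and *Iigp1* at 0.0256 ± 0.012 CPM per kilobase. *Tgtp1* and *Iigp1* had the lowest levels per kilobase in PPs as well, at 1.20 ± 0.21 and 0.25 ± 0.24.

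**Figure D2:**
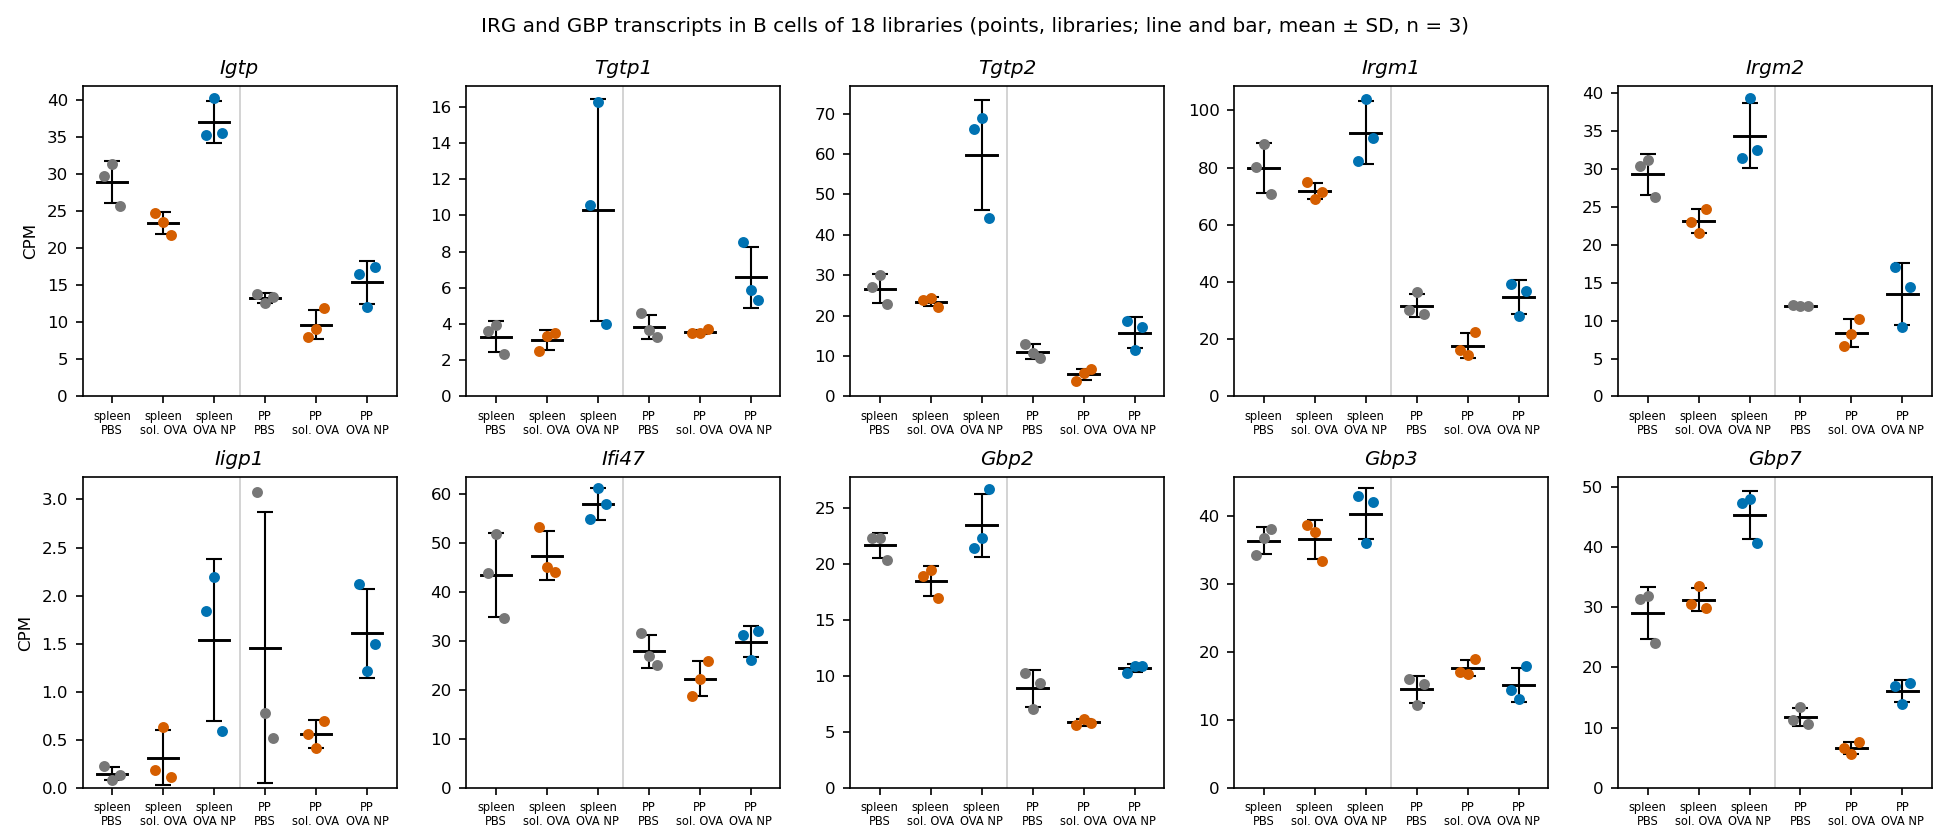
Level of each of the 10 transcripts, in CPM, in the 18 libraries, with spleen groups at the left and PP groups at the right of each panel; points are libraries, and the line and bar are the mean and SD of 3 libraries. For 8 genes every spleen library lies above every PP library, and *Tgtp1* and *Iigp1* overlap between the tissues. The share of all tested genes with this pattern was not counted.

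The regulatory IRGs had their lowest means after soluble OVA in both tissues. *Igtp*, which guards lipid droplets and endoplasmic reticulum membranes, was at 29.8, 31.3 and 25.8 CPM in splenic B cells of PBS controls, at 24.7, 23.5 and 21.8 CPM after soluble OVA and at 35.3, 40.3 and 35.5 CPM after OVA NPs. None of the 3 spleen groups overlapped, and the order was OVA NPs, PBS and soluble OVA. In PPs, *Igtp* was at 13.9, 12.6 and 13.4 CPM in PBS controls, at 8.02, 9.13 and 11.9 CPM after soluble OVA and at 16.5, 12.1 and 17.5 CPM after OVA NPs, so that soluble OVA was lower than both others and OVA NP replicate 2 was below the PBS controls.

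*Irgm2*, which encodes a regulator found on the Golgi, was at 30.4, 31.3 and 26.3 CPM in the spleen of PBS controls, at 23.0, 21.6 and 24.8 CPM after soluble OVA and at 31.5, 39.3 and 32.5 CPM after OVA NPs. As for *Igtp*, the 3 groups did not overlap, although OVA NP replicate 1 was only slightly above the highest PBS library. In PPs it was at 12.1, 11.9 and 12.0 CPM in PBS controls, at 6.62, 8.27 and 10.2 CPM after soluble OVA and at 17.1, 9.10 and 14.5 CPM after OVA NPs. The PP OVA NP libraries spread around both other groups, with replicate 2 below all PBS controls.

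*Irgm1*, whose product takes part in autophagy and mitochondrial control, took 20.9% to 26.9% of the summed CPM of the 10 genes in spleen libraries. In the spleen it was at 80.3, 88.2 and 70.7 CPM in PBS controls, at 75.0, 69.2 and 71.4 CPM after soluble OVA and at 82.3, 104 and 90.4 CPM after OVA NPs. The OVA NP libraries were above the soluble OVA libraries and overlapped the PBS controls. In PPs it was at 30.1, 36.3 and 28.7 CPM in PBS controls, at 16.1, 14.6 and 22.6 CPM after soluble OVA and at 39.3, 28.3 and 36.7 CPM after OVA NPs, where soluble OVA was again below both others.

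The effectors *Tgtp2*, *Tgtp1*, *Ifi47* and *Iigp1* each had their highest mean within each tissue after OVA NPs. In the spleen *Tgtp2* was at 27.1, 30.1 and 22.9 CPM in PBS controls and at 23.9, 24.4 and 22.1 CPM after soluble OVA. It was at 66.1, 69.0 and 44.0 CPM after OVA NPs. Each OVA NP library was above all other libraries, with replicate 3 lower than the other two, and PBS and soluble OVA overlapped. In PPs it was at 13, 10.8 and 9.41 CPM in PBS controls, at 3.93, 5.71 and 6.76 CPM after soluble OVA and at 18.8, 11.4 and 17.1 CPM after OVA NPs. Here soluble OVA lay below both groups, and OVA NPs overlapped PBS through replicate 2.

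*Tgtp1*, the near-identical neighbor of *Tgtp2*, was at 3.62, 3.96 and 2.33 CPM in the spleen of PBS controls, at 2.48, 3.32 and 3.52 CPM after soluble OVA and at 10.6, 16.3 and 4.00 CPM after OVA NPs. OVA NP replicate 3 was barely above the highest PBS library, and the other two stood well apart from it. In PPs *Tgtp1* was at 4.59, 3.67 and 3.27 CPM in PBS controls, at 3.53, 3.50 and 3.71 CPM after soluble OVA and at 8.52, 5.88 and 5.33 CPM after OVA NPs, the highest group without overlap. The share of the *Tgtp1* and *Tgtp2* counts assigned to *Tgtp1* was 8.33% to 19.1% in spleen libraries and 23.8% to 47.3% in PP libraries, so the division between the pair itself differed by tissue. Their sum was 30.0 ± 4.46, 26.6 ± 1.03 and 70.0 ± 19.5 CPM in the spleen after PBS, soluble OVA and OVA NPs, and 14.9 ± 2.49, 9.04 ± 1.51 and 22.4 ± 5.00 CPM in PPs.

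*Ifi47* varied less than the other effectors, from 34.8 to 51.8 CPM in the spleen of PBS controls, from 44.0 to 53.2 CPM after soluble OVA and from 54.8 to 61.2 CPM after OVA NPs. In PPs its ranges were 25.0 to 31.7, 18.8 to 25.9 and 26.2 to 32.1 CPM. The OVA NP libraries were above both other groups in the spleen, and above soluble OVA alone in PPs.

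*Iigp1*, an effector studied for its action against *Toxoplasma* (chr18:60376027-60392634), was near the limit of detection. Its counts in the spleen were 5, 2 and 3 in PBS controls, 5, 10 and 2 after soluble OVA, and 31, 38 and 15 after OVA NPs. Taken over the pooled libraries, its level after OVA NPs was 9.56 times that in PBS controls, with an exact 95% counting interval of 4.95 to 20.7, and 4.97 times that after soluble OVA (2.93 to 8.94). These intervals cover counting error only and leave out the spread between libraries. In PPs its counts were 75, 11 and 10 in PBS controls, 17, 11 and 17 after soluble OVA, and 45, 27 and 34 after OVA NPs. PP PBS replicate 1 stood apart at 3.08 CPM from 0.776 and 0.520 CPM in the other two, and the group's mean rests on it.

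The GBPs divided by gene. *Gbp7*, whose product has been linked to autophagy and to the delivery of oxidase subunits to vacuoles, was at 31.4, 31.8 and 24.1 CPM in the spleen of PBS controls, at 30.5, 33.4 and 29.8 CPM after soluble OVA and at 47.3, 48.0 and 40.7 CPM after OVA NPs. In PPs it was at 11.2, 13.5 and 10.6 CPM in PBS controls, at 6.69, 5.64 and 7.66 CPM after soluble OVA and at 17, 14.0 and 17.4 CPM after OVA NPs. It was highest after OVA NPs without overlap in both tissues, while soluble OVA overlapped PBS in the spleen and was below it in PPs.

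*Gbp2*, which restricts *Toxoplasma*, ranged in the spleen from 20.4 to 22.3 CPM in PBS controls, from 17 to 19.5 CPM after soluble OVA and from 21.4 to 26.7 CPM after OVA NPs. In PPs it was at 10.3, 7.05 and 9.41 CPM in PBS controls, at 5.59, 6.16 and 5.77 CPM after soluble OVA and at 10.3, 10.9 and 10.9 CPM after OVA NPs. Soluble OVA was the lowest group in both tissues without overlap. *Gbp3* had another order of groups, since its spleen groups overlapped between 33.3 and 42.9 CPM, and in PPs its soluble OVA libraries, at 16.8 to 19.0 CPM, were above the PBS controls at 12.2 to 16 CPM and overlapped OVA NPs at 13.1 to 17.9 CPM.

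The effect of OVA NPs against PBS was compared in each tissue, with a gene called when its adjusted p in edgeR was under 0.05 and its log2 fold change was above 0.25 in either direction. In the spleen 4 of the 10 genes were called, all higher after OVA NPs, where 8.6% (1221 of 14200) of the tested genes were called higher. These were *Tgtp2* with a log2 fold change of 1.17 ± 0.20 (SE), *Gbp7* with 0.65 ± 0.10, *Igtp* with 0.37 ± 0.085 and *Iigp1* with 3.31 ± 0.59, a value that depends on the prior count because *Iigp1* was at 2 to 5 counts in the controls. *Tgtp1* had the next largest value, 1.62 ± 0.58, and was not called, with replicate 3 near the controls. The groups did not overlap for 7 genes, beside 16.8% of the tested genes in that direction. The median of the 10 log2 fold changes was 0.40, beside 0.0006 over all tested genes. With 1 library left out at a time, between 3 and 5 genes were called.

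Germinal center B cell markers moved with this comparison: the summed level of 8 markers was 239.5 to 352.3 CPM in PBS controls and 729.5 to 949.8 CPM after OVA NPs, and that of 5 plasma cell markers was 384.3 to 445.1 and 612.3 to 630.7 CPM. Markers of T cells, 8 genes at 69.7 to 87.3 CPM, and of NK cells, 6 genes at 6.39 to 10.3 CPM, overlapped between the groups, although most of the T cell sum was *Lck*, named after its values were seen, and the other 7 genes summed to 3.69 to 5.23 CPM. Of 8 tested monocyte and macrophage markers 3 were called lower after OVA NPs (median -0.76), with sums of 117.7 to 274.2 CPM in PBS controls and 50.1 to 180.7 CPM after OVA NPs. Of 7 dendritic cell markers 2 were called lower (median -0.33), with sums that overlapped. The 5 stromal and endothelial markers summed to 243.1 to 255.3 and 172.4 to 202.7 CPM without overlap. The 7 B cell markers summed to 9905 to 10140 CPM in PBS controls and 8448 to 9447 CPM after OVA NPs. The part of these differences in the values was not tested.

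In PPs 0 of the 10 genes were called between OVA NPs and PBS, as were 0 of the 15798 tested genes (0%), of which 1573 had an unadjusted p under 0.05 in edgeR. Of the 10 genes, 3 had an unadjusted p under 0.05, and DESeq2 called 150 genes in this comparison and 0 of the 10. The estimates were positive for all 10, from 0.07 ± 0.16 for *Gbp3* to 0.78 ± 0.25 for *Tgtp1*, with 0.52 ± 0.20 for *Tgtp2* and 0.47 ± 0.15 for *Gbp7*. Libraries did not overlap for 3 genes, *Tgtp1*, *Gbp2* and *Gbp7*, beside 6.85% of the tested genes. The median over the 10 was 0.21, beside -0.0074 over all tested genes.

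Soluble OVA against PBS asks what the free allergen alone was accompanied by, with the same PBS libraries as above. In the spleen 2 of 9 tested genes were called, both lower after soluble OVA, where 6.72% of 14128 tested genes were called lower. *Igtp* fell by 0.29 ± 0.096 on the log2 scale and *Irgm2* fell by 0.32 ± 0.093. *Iigp1* was too low to be tested, and the other 7 lay between -0.21 ± 0.094 for *Gbp2* and 0.15 ± 0.14 for *Ifi47*. The libraries of 3 genes (*Igtp*, *Irgm2* and *Gbp2*) did not overlap, beside 20.8% of the tested genes. This count rests on single libraries: it was 0 without PBS replicate 1, without PBS replicate 2 and without soluble OVA replicate 2, 1 without soluble OVA replicate 3, and 0 in DESeq2. Germinal center markers, at 239.5 to 352.3 CPM in PBS controls and 830.8 to 968.9 CPM after soluble OVA, and 9 monocyte and macrophage markers, at 117.7 to 274.2 and 43.1 to 90.5 CPM, moved with this comparison. So did plasma cell markers, at 384.3 to 445.1 and 491.7 to 563.8 CPM, stromal and endothelial markers, at 243.1 to 255.3 and 193.6 to 219.1 CPM, and B cell markers, at 9905 to 10140 and 9005 to 9397 CPM. Their part in it was not tested.

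In PPs 4 of the 10 genes were called lower after soluble OVA, where 13.9% of 15792 tested genes were called lower. *Tgtp2* fell by 1.00 ± 0.23 on the log2 scale, *Irgm1* fell by 0.82 ± 0.17, *Gbp7* fell by 0.80 ± 0.18 and *Gbp2* fell by 0.59 ± 0.19. *Irgm2*, at -0.50 ± 0.18, and *Igtp*, at -0.44 ± 0.16, were not called although their libraries did not overlap. The libraries were lower without overlap for 6 genes, beside 25.1% of the tested genes, and higher without overlap for *Gbp3*, at 0.30 ± 0.13. The median over the 10 was -0.55, beside -0.02 over all tested genes. Without PP PBS replicate 1 the count was 2, and it was 4 without the shallow PP PBS replicate 2.

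OVA NPs against soluble OVA compares encapsulated with free allergen, and these fits share libraries with the ones above. In the spleen only 33 of 13840 genes were called, of which 19 were higher after OVA NPs (0.137%), and 4 of these 19 were among the 10 genes. They were *Tgtp2* at 1.33 ± 0.15, *Igtp* at 0.66 ± 0.091, *Irgm2* at 0.57 ± 0.10 and *Gbp7* at 0.53 ± 0.084. The others ranged from 0.14 ± 0.094 for *Gbp3* to 2.33 ± 0.64 for *Iigp1*, and *Tgtp1* was at 1.71 ± 0.52. The libraries of 8 genes, all but *Iigp1* and *Gbp3*, did not overlap, beside 7.25% of the tested genes. The median over the 10 was 0.55, beside -0.0035 over all tested genes. These calls also rest on single libraries. Without OVA NP replicate 2 none of the 14459 genes tested was called, without soluble OVA replicate 3 the count of the 10 was 0 of 10 calls in all, and without soluble OVA replicate 1 it was 1 of 7 calls in all. Summed plasma cell markers were at 491.7 to 563.8 CPM after soluble OVA and 612.3 to 630.7 CPM after OVA NPs, while those of germinal center B cells, T cells, NK cells and dendritic cells overlapped. Monocyte and macrophage markers, at 43.1 to 90.5 and 50.1 to 180.7 CPM, overlapped as well. Their median log2 fold change was 0.67 over 7 tested genes, of which edgeR called 0 and DESeq2 called 1. Neutrophil markers also overlapped, with a median of 1.07 over 2 tested genes. Their part was not tested.

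In PPs 8 of the 10 genes were called higher after OVA NPs than after soluble OVA, where 13.8% of 15599 tested genes were called higher. The values were 1.52 ± 0.23 for *Tgtp2*, 1.5 ± 0.40 for *Iigp1*, 1.26 ± 0.16 for *Gbp7*, 0.95 ± 0.17 for *Irgm1*, 0.86 ± 0.23 for *Tgtp1*, 0.85 ± 0.15 for *Gbp2*, 0.65 ± 0.18 for *Igtp* and 0.40 ± 0.12 for *Ifi47*. *Irgm2* was at 0.68 ± 0.24 and *Gbp3* at -0.24 ± 0.14, and neither was called. The same 8 genes had libraries that did not overlap, beside 24.9% of the tested genes. The median over the 10 was 0.86, beside 0.03 over all tested genes. The count was 4 without soluble OVA replicate 2 and without OVA NP replicate 1, and 5 without OVA NP replicate 3.

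**Figure D3:**
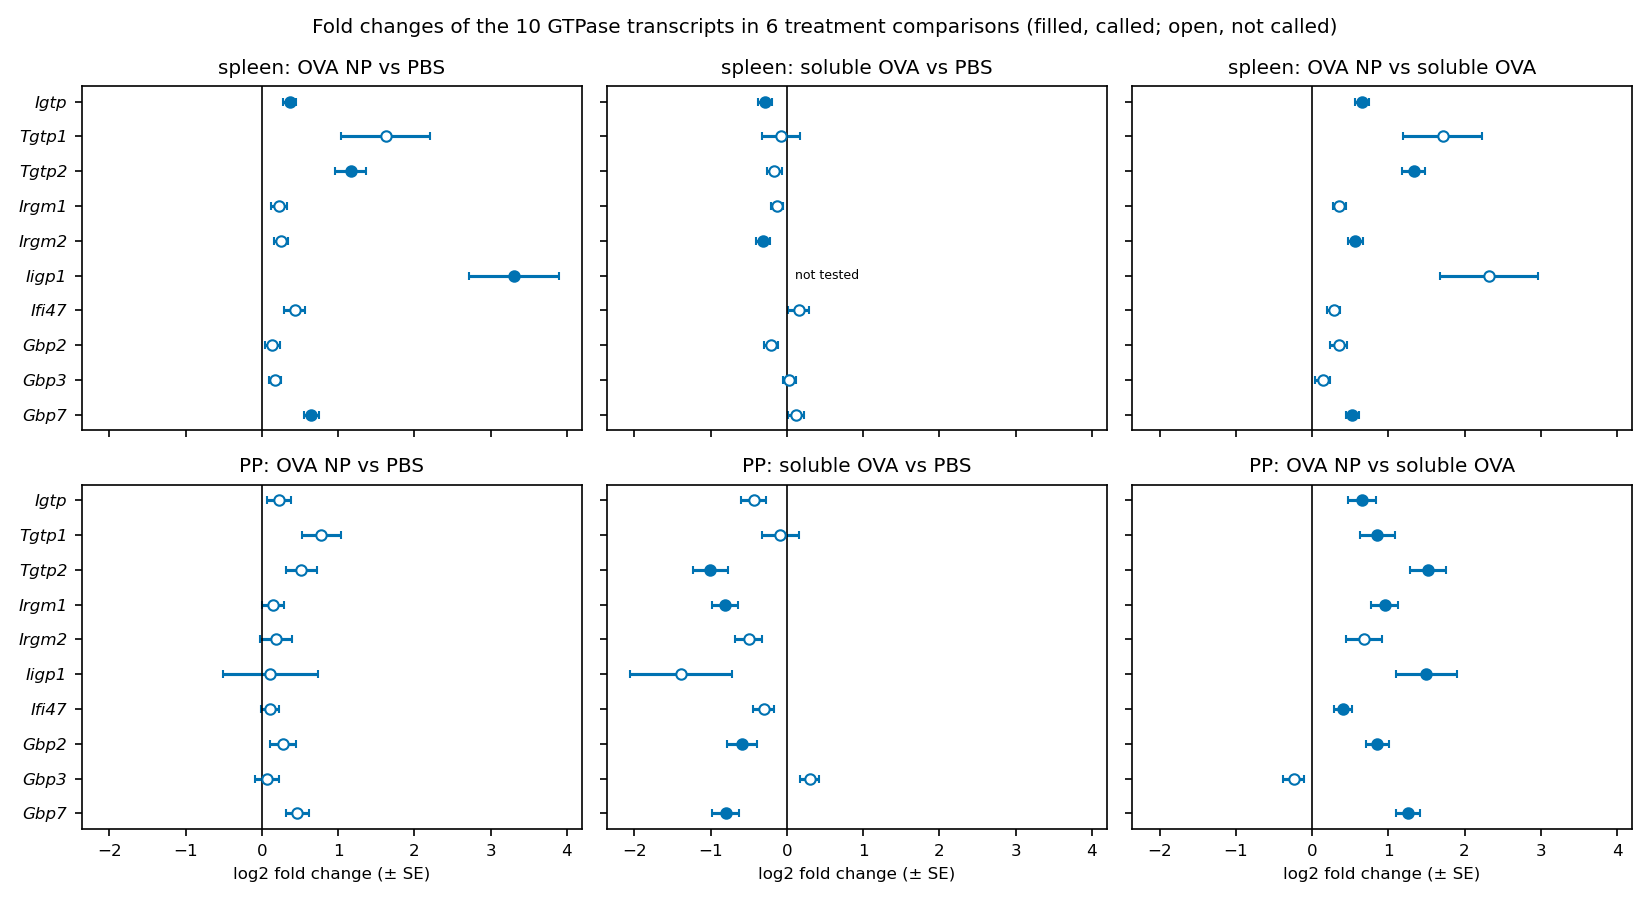
Log2 fold change of the 10 genes in the 6 treatment comparisons, spleen above and PP below, with bars of 1 SE; filled points are called genes. Filled points lie at the right in the spleen for OVA NPs against PBS (4 genes) and in PPs for OVA NPs against soluble OVA (8 genes), at the left for soluble OVA against PBS (2 and 4 genes), and *Gbp3* is an open point in every panel.

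Other markers differed between the same PP libraries. Summed germinal center markers were at 1688 to 2009 CPM in PBS controls, 3313 to 3531 CPM after soluble OVA and 1356 to 1953 CPM after OVA NPs. Summed NK cell markers were at 23.0 to 26.0, 14.2 to 21.9 and 31.5 to 47.0 CPM, and 7 dendritic cell markers at 61.7 to 86.0, 56.0 to 60.5 and 91.3 to 93.3 CPM, in the same order of treatments, and all of these markers were detected in each group. The 8 immediate-early genes were at 1906 to 2994, 1007 to 1309 and 1526 to 2219 CPM. The sum of the 8 T cell markers overlapped between the 3 groups at 171 to 200.8 CPM, most of it from *Lck*, which was at 131.8 to 153, 147 to 163.8 and 106 to 117.5 CPM. Without *Lck*, a split made after the values were seen, the other 7 summed to 41.6 to 49.8, 23.1 to 35.1 and 60.5 to 84.3 CPM and did not overlap.

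Between OVA NPs and soluble OVA in PPs, 6 of 8 T cell markers were called higher and *Lck* lower (median 1.48), and 6 of 7 dendritic cell markers were called higher and 1 lower (median 0.97). For 8 tested monocyte and macrophage markers 3 were called higher (median 0.88), and their sums were at 157.4 to 276.3, 149.1 to 353.8 and 268.6 to 364.3 CPM after PBS, soluble OVA and OVA NPs. For 6 NK cell markers 2 were called higher (median 1.09), and 7 of 8 germinal center markers were called lower (median -0.73). Stromal and endothelial markers summed to 185.2 to 209, 85.1 to 107.1 and 140.5 to 172 CPM in the same order of treatments, and B cell markers to 6595 to 7004, 5078 to 5972 and 6007 to 6239 CPM. Among the lists given here, the markers of NK cells, of dendritic cells and of T cells other than *Lck* had the group order of the summed GTPase transcripts. Plasma cell markers had this order by their medians, at 920 to 1025, 842.7 to 927.9 and 964.4 to 1050 CPM, with ranges that overlapped. Neutrophil and erythroid markers had this order of medians as well, at no more than 10.7 and 4.01 CPM. *Lck*, the immediate-early genes and the markers of monocytes and macrophages, stromal and endothelial cells and B cells had other orders. The germinal center markers were highest where the summed GTPase transcripts were lowest. The part of these markers in the values was not tested.

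Between tissues, 8 of the 10 genes were called lower in PP than in splenic B cells under each treatment, and they were the same 8, all but *Tgtp1* and *Iigp1*. In PBS controls 20.1% of 15463 tested genes were called lower in PPs and the 8 values ran from -0.56 ± 0.15 for *Ifi47* to -1.26 ± 0.11 for *Irgm1*. After soluble OVA 24.3% of 15415 tested genes were called lower, and the values ran from -0.99 ± 0.097 for *Gbp3* to -2.16 ± 0.13 for *Gbp7*. After OVA NPs 15.1% of 15466 tested genes were called lower, and the values ran from -0.86 ± 0.089 for *Ifi47* to -1.82 ± 0.22 for *Tgtp2*. *Tgtp1* was called under none of the treatments, at 0.30 ± 0.28, 0.28 ± 0.24 and -0.53 ± 0.48. *Iigp1* was called higher in PPs of PBS controls, where 25.5% of the tested genes were called higher, with pooled levels 11.3 times as high (exact 95% counting interval 5.87 to 24.3), and most of these counts came from PP PBS replicate 1. This interval too leaves out the spread between libraries. Summed epithelial markers were at 13.5 to 16.6 CPM in the spleen and 182.7 to 852.4 CPM in PPs, and germinal center markers were higher in every PP library than in every spleen library. Summed T cell markers were at 69.7 to 88.8 CPM in the spleen and 171 to 200.8 CPM in PPs, and NK cell markers at 6.39 to 10.3 and 14.2 to 47.0 CPM. The part of these cells was not tested.

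Whether a treatment acted differently in the tissues was taken from the interaction of tissue and treatment. For OVA NPs against PBS 0 of the 10 interactions were called in edgeR, where 4.42% of 16619 tested genes were called in either direction. Of the 10, 2 had an unadjusted p under 0.05 in edgeR, beside 3106 of the 16619 tested genes. DESeq2 called 1 of the 10, beside 1214 of 20706 tested genes. The estimates, PP minus spleen, lay between -0.84 ± 0.57 for *Tgtp1* and 0.14 ± 0.19 for *Gbp2*, apart from -3.19 ± 0.98 for *Iigp1*, whose counts are low. For soluble OVA against PBS *Gbp7* alone was called in edgeR, at -0.92 ± 0.20, where 6.84% of 16541 tested genes were called. *Tgtp2* at -0.84 ± 0.24 and *Irgm1* at -0.69 ± 0.20 came next among the well-counted genes and were not called. DESeq2 called 3 of the 10, beside 1825 of 19542 tested genes. The count was 1 in most fits that left out a library, 3 without PP soluble OVA replicate 3 and 2 without PP PBS replicate 3.

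Genes of the same families and of the interferon pathway were read from lists chosen with earlier results of these data known. Their counts and p-values are therefore a description and not independent tests. Between OVA NPs and soluble OVA, 0.137% of tested genes were called higher in the spleen and 13.8% in PPs. In that spleen comparison 1199 of 13840 tested genes had an unadjusted p under 0.05 in edgeR. Between OVA NPs and PBS in the spleen, 8.6% of tested genes were called higher. Of 6 other IRG genes tested, 0 were called in the spleen between OVA NPs and soluble OVA in edgeR or DESeq2 (2 at an unadjusted p under 0.05), and 2 were called higher in PPs, *9930111J21Rik1* (0.82 ± 0.09, edgeR adjusted p = 0.00046) and *9930111J21Rik2* (1.01 ± 0.11, adjusted p = 0.00040), which lie between the IRG genes on chromosome 11. Between OVA NPs and PBS in the spleen, *Gm12250*, which encodes the effector Irgb10, was called higher (0.63 ± 0.16, edgeR adjusted p = 0.011), whereas *9930111J21Rik1* (-0.26 ± 0.064, adjusted p = 0.011) and *9930111J21Rik2* (-0.27 ± 0.068, adjusted p = 0.011) were called lower. Of 7 other GBP genes tested, 6 were called higher in PPs after OVA NPs than after soluble OVA, among them *Gbp8* (1.38 ± 0.28, edgeR adjusted p = 0.0072), *Gbp4* (0.98 ± 0.11, adjusted p = 0.00061) and *Gbp9* (0.87 ± 0.13, adjusted p = 0.0019). *Gbp10*, at 1.00 ± 0.44 (edgeR adjusted p = 0.12), was the exception. Of these 7, 0 were called in the spleen in that comparison in edgeR or DESeq2, with 4 at an unadjusted p under 0.05, and 0 were called by either tool between OVA NPs and PBS in each tissue, with 1 at an unadjusted p under 0.05 in each. The median of the 7 was 0.98 in PPs and 0.22 in the spleen, beside 0.03 and -0.0035 over all tested genes. Among other interferon-inducible GTPase genes, 5 were tested in each tissue between OVA NPs and soluble OVA. In the spleen 1 was called higher, *Gm4070* (0.60 ± 0.08, edgeR adjusted p = 0.0069), and in PPs 3 were called higher. Against PBS, 1 of 5 was called higher after OVA NPs in the spleen, and 0 of 6 were called in PPs.

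Upstream of the GTPases, none of 6 interferon ligand genes had enough counts to be tested. *Ifng* had 0 to 6 counts in spleen libraries and 1 to 10 in PP libraries, and *Ifnb1* had 0 in all 18, which allows up to 0.0998 to 0.212 CPM. *Nlrc5*, the activator of MHC class I genes, was at 72.4 ± 8.04, 61.3 ± 5.48 and 93.5 ± 9.24 CPM in the spleen after PBS, soluble OVA and OVA NPs. It was higher after OVA NPs than after PBS (0.38 ± 0.09, edgeR adjusted p = 0.011) and than after soluble OVA (0.61 ± 0.08, adjusted p = 0.0069). In PPs *Nlrc5* was lower after soluble OVA than after PBS (-0.86 ± 0.14, edgeR adjusted p = 0.0026) and higher after OVA NPs than after soluble OVA (1.07 ± 0.11, adjusted p = 0.00039). *Irf1* was called in PPs (0.67 ± 0.09, edgeR adjusted p = 0.0012) and not in the spleen (0.32 ± 0.08, adjusted p = 0.23). In all, 1 of 8 transcription factors was called in the spleen and 4 of 8 in PPs between OVA NPs and soluble OVA, each higher after OVA NPs.

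Receptor genes, feedback inhibitors and other targets were read in the same way. In the spleen 0 of 7 receptor and kinase genes were called between OVA NPs and soluble OVA in edgeR or DESeq2, with 0 at an unadjusted p under 0.05, whereas 5 of 7 were called higher in PPs, the largest value being that of *Ifnar1* (1.01 ± 0.12, adjusted p = 0.00077), a chain of the type I interferon receptor. *Ifngr2*, a chain of the interferon-γ receptor, was at 0.79 ± 0.08 in PPs (edgeR adjusted p = 0.00042) and at -0.06 ± 0.07 in the spleen. *Socs3*, a feedback inhibitor of cytokine receptors, was called lower in the spleen (-0.90 ± 0.11, edgeR adjusted p = 0.0042), and *Ptpn2*, a phosphatase that dampens cytokine signaling, was called lower in PPs (-0.28 ± 0.07, adjusted p = 0.020). Of 20 antiviral interferon-stimulated genes, 0 were called in the spleen in edgeR or DESeq2, with 13 at an unadjusted p under 0.05, and 5 were called higher in PPs, among them *Ddx58* (1.04 ± 0.12, edgeR adjusted p = 0.00051) and *Samd9l* (1.02 ± 0.13, adjusted p = 0.00085). Of 14 interferon-γ targets outside the GTPases, 0 of 11 tested were called in the spleen between OVA NPs and soluble OVA in edgeR or DESeq2, with 1 at an unadjusted p under 0.05. In PPs 4 of 14 were called higher, led by *Cd274* (1.58 ± 0.41, edgeR adjusted p = 0.044), and *Psmb8*, named after its value was seen, was called lower (-0.28 ± 0.08, adjusted p = 0.029). Between OVA NPs and PBS in the spleen 4 of the 11 were called higher, among them *Psmb9* (0.40 ± 0.054, edgeR adjusted p = 0.00014), a subunit of the immunoproteasome. Of 10 autophagy conjugation genes, *Atg16l1* alone was called for OVA NPs against soluble OVA, in PPs (0.38 ± 0.09, edgeR adjusted p = 0.010).

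**Figure D4:**
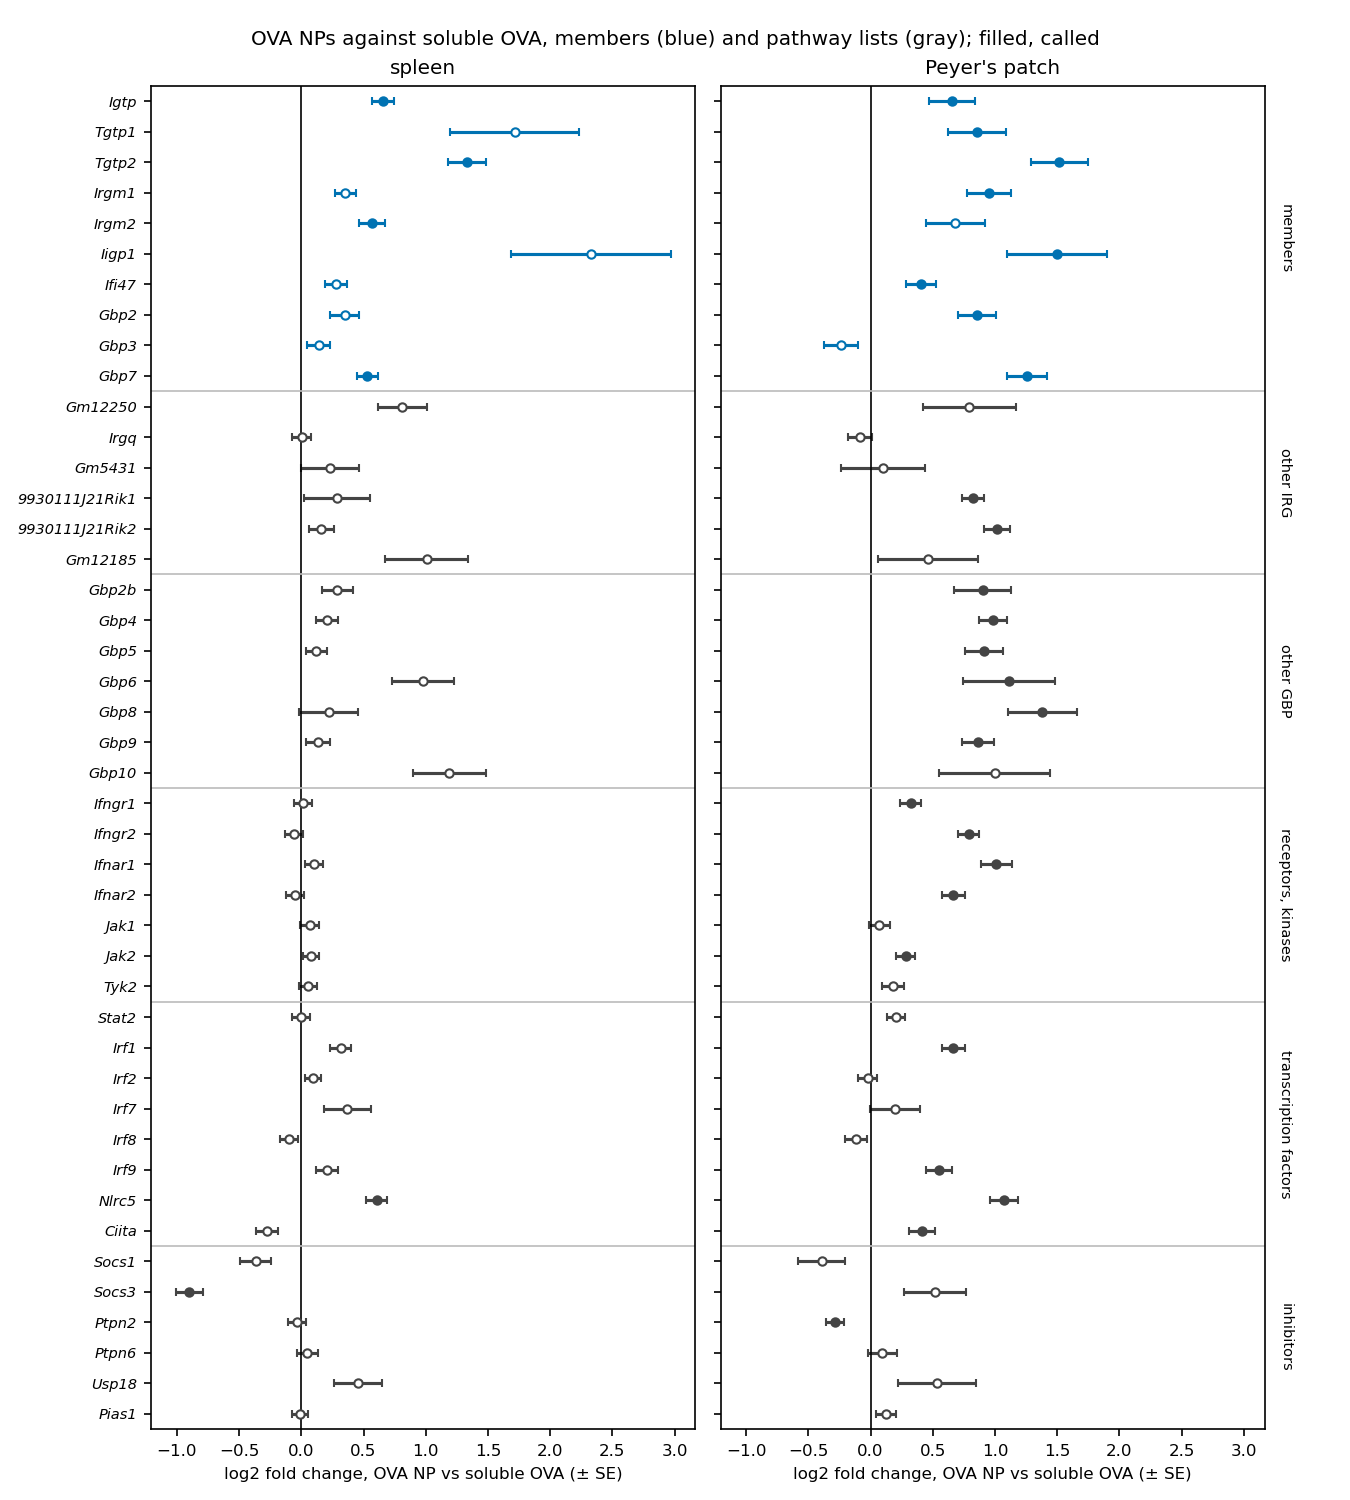
Log2 fold change of OVA NPs against soluble OVA, with bars of 1 SE, in the spleen and in PPs. The 10 GTPase genes are blue, genes of 5 of the lists are gray, and filled points are called genes. Filled gray points are few in the spleen, where *Nlrc5* and *Socs3* are called, and in PPs they include 6 GBP genes and 5 receptor or kinase genes.

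Likeness to the GTPases was taken as the correlation of each gene's log2 level with the mean of the 10 over 18 libraries, after subtraction of the tissue means. The genes ranked 2 to 10 among 13533 with a mean of at least 1 CPM are given. Their r was 0.85 for *Nlrc5* and *Mex3a*, with *Shoc2* at 0.85, *Gm12250* at 0.84, *Lman2l* at 0.84, *Chst10* at 0.82, *Ighv4-1* at 0.82, *Banp* at 0.81 and *Gm4070* at 0.81. The libraries share treatment groups, and after subtraction of all group means r was 0.43 for *Nlrc5*, 0.48 for *Gm12250* and -0.20 for *Chst10*. It was 0.57 for *Shoc2* and *Ighv4-1*, 0.56 for *Mex3a*, 0.41 for *Gm4070*, 0.35 for *Lman2l* and 0.34 for *Banp*. The order of these genes is a description over libraries that also share depth and composition.

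Most pairs of the 10 genes deviated in the same direction among libraries of the same group. After subtraction of the group means, 38 of the 45 pairs correlated positively over the 18 libraries (12 residual degrees of freedom), with a median r of 0.30 and a range from -0.46 to 0.85. The highest pairs were *Igtp* with *Irgm2* at 0.85, whose exons overlap in part, *Igtp* with *Ifi47* at 0.82 and *Irgm1* with *Gbp7* at 0.79. *Gbp2* had a mean r of -0.021 with the other 9 and *Gbp3* one of 0.12, and the pair correlated with each other at 0.54. These deviations also hold differences in depth, and they are given with no test.

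**Figure D5:**
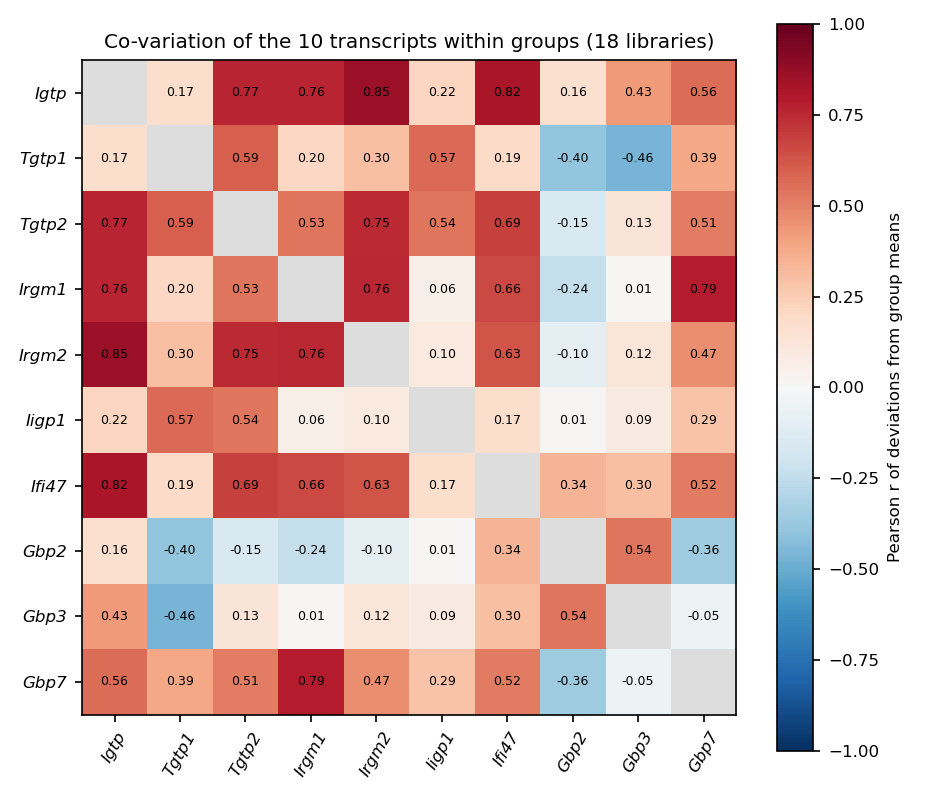
Pearson r between the 10 transcripts, from log2 levels of 18 libraries after subtraction of the 6 group means; red is positive, blue is negative and the gray diagonal is left empty. *Igtp*, *Tgtp2*, *Irgm1*, *Irgm2* and *Ifi47* form a block of r between 0.53 and 0.85. *Gbp2* and *Gbp3* have values of both signs with the others, from -0.395 to 0.537 for *Gbp2* and from -0.462 to 0.537 for *Gbp3*.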

How the data were processed

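The authors sequenced poly(A) RNA of B cells as paired reads, trimmed them with Cutadapt 2.3, mapped them with STAR 2.7.8a to GRCm38 (Ensembl 102) and estimated gene counts with RSEM 1.3.3. The deposited values are RSEM expected counts, which are whole numbers and were not normalized. The reference is of another strain than Balb/cJ, and IRG genes are polymorphic, so reads could be assigned differently.

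Libraries were grouped by their labels. Each comparison was fitted with edgeR 4.0.16 (R 4.3.3) on the libraries of its own groups with filterByExpr (minimum count 10, minimum total 15), TMM factors, the robust quasi-likelihood test and Benjamini-Hochberg adjustment over all tested genes. Per-library levels are CPM of the total count. DESeq2 1.42.0, which the authors used, was an alternative. Members and lists were chosen with earlier results of these data known, and 3 list genes were not matched. 1 gene is not reported here. The text names all 10 members, any gene of the IRG, GBP, interferon-inducible GTPase, ligand, receptor, transcription factor and inhibitor lists, at most 4 called genes of other lists, and the genes ranked 2 to 10 in likeness. Recovery of known fold changes by the edgeR fit was tested on simulated counts for 3 of the 11 comparisons. The simulated counts had the same dispersion in all genes and groups, which the libraries need not have. Nothing about the results is read from this check. Gene positions came from GENCODE M21 and promoters from RefSeq (GRCm38.p6). With 3 libraries per group, an exact permutation test cannot go below 0.10.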

Additional observations from a re-analysis of the deposited data

Results flagged for a closer look

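For 9 effects the tissues differed by the interaction of tissue and treatment, with a value of PP minus spleen on the log2 scale and an edgeR adjusted p. For soluble OVA against PBS, *Gbp7* was at -0.92 and *Gbp4* at -0.70 (edgeR adjusted p = 0.011). *Gbp7* was among the 10 genes chosen on these values, so its value is a description, with no p given. The other genes come from lists chosen with earlier results of these data known, so their p-values are a description too. The receptor chains *Ifngr2*, *Ifnar1* and *Ifnar2* were at -1.08 (edgeR adjusted p = 4.2e-05), -0.68 (adjusted p = 0.0041) and -0.50 (adjusted p = 0.0059). *Ciita*, the activator of MHC class II genes, was at -0.97 (edgeR adjusted p = 0.00031). The feedback inhibitors *Socs1* and *Socs3* were at -1.09 (edgeR adjusted p = 0.017) and -2.44 (adjusted p = 4e-06). For OVA NPs against PBS, *Socs1* was at -1.09 (edgeR adjusted p = 0.024). Groups of 3 libraries were too small for a search for single libraries that stand apart.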

How the results depend on the processing

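Counts of the 10 genes called changed by more than 1.5 times under these settings. With a replicate block, 5 instead of 8 were called in PPs between OVA NPs and soluble OVA, and 1 instead of 4 between soluble OVA and PBS. With all 18 libraries in 1 fit, 1 instead of 4 was called in the spleen between OVA NPs and soluble OVA, and 0 instead of 2 between soluble OVA and PBS. For that spleen comparison of soluble OVA, at least 10 counts in every library gave 1, DESeq2's size factors gave 1 and DESeq2 gave 0. The tissue difference of the OVA NP effect gave 1 instead of 0 in DESeq2 and with no filter, and that of the soluble OVA effect gave 3 instead of 1 with at least 10 counts and in DESeq2, and 2 with no filter.

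Over all genes, PP OVA NPs against PBS gave 24 calls with all 18 libraries in 1 fit, 150 in DESeq2 and 146 with no filter, instead of 0, and spleen OVA NPs against soluble OVA gave 14, 83 and 230, instead of 33. With 1 library left out these counts ran from 0 to 8 and from 0 to 40. The counts of the 10 genes then ran from 4 to 7 (PP OVA NPs against soluble OVA), 2 to 4 (PP soluble OVA against PBS), 0 to 4 (spleen OVA NPs against soluble OVA), 0 to 2 (spleen soluble OVA against PBS), 3 to 5 (spleen OVA NPs against PBS), 0 to 1 and 1 to 3 (tissue differences of the OVA NP and soluble OVA effects), and 8 to 9 in PBS or OVA NPs and 8 in soluble OVA (PP against spleen).

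Direction turned in 13 of the fits with 1 library left out, whose log2 values spanned -0.069 to 0.16 for *Gbp3*, -0.29 to 1.33 for *Iigp1* and -0.0003 to 0.40 for *Irgm2* (PP OVA NPs against PBS), -0.018 to 0.11 for *Gbp3* and -0.27 to 0.073 for *Tgtp1* (spleen soluble OVA against PBS), -0.16 to 0.068 for *Tgtp1* (PP soluble OVA against PBS) and -0.22 to 0.53 for *Iigp1* (PP against spleen, OVA NPs). Under the other settings 0 directions turned. Deviations of same-numbered libraries correlated between -0.38 and 0.24 over 27 pairs, 6 of them over 0.1. Pairs of different treatments are included, and with 3 libraries per group these values cannot tell whether libraries were paired. The causes were not tested. The 2 to 10 counts of *Iigp1* in spleen PBS and soluble OVA libraries limit its values.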
